A study of Mus musculus with 6 samples.

Results

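Glutamate receptors and the auxiliary subunits of AMPA receptors were followed in cultured oligodendrocyte precursor cells (OPC), the dividing glial cells that later form myelin. The members were 30 genes of the AMPA, kainate, NMDA, delta and metabotropic classes and of the transmembrane AMPA receptor regulatory proteins (TARPs). They were found by gene symbol among the probes of an Illumina bead array, with 1 probe per gene, the one with the highest mean log2 intensity over the 6 arrays. A probe was present for 29 of the 30 (60 probes), out of 30869 gene symbols on the array, and Grid1, a delta receptor gene, had none under its symbol. Spinal cord OPC (3 samples) were set against cerebrum OPC (3 samples), all primary cultures from C57BL/6 pups aged 6 to 8 days that were kept for 7 days with 10 ng/ml PDGF-AA, a growth factor that keeps OPC dividing. Each replicate number stands for 1 cell preparation, a pool of 3 to 4 pups that gave a spinal cord and a cerebrum sample, so no value belongs to a single animal. The series was set up to find genes that differ between OPC of the 2 tissues, with migration in view.

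AMPA, kainate and NMDA receptors are ion channels that glutamate opens, each built from 4 subunits, while metabotropic receptors act through G proteins. OPC are known to receive synapses from neurons, mainly through AMPA receptors. The GluA2 subunit, encoded by Gria2, decides whether an AMPA receptor passes calcium, because its RNA is edited at a site in the pore, and channels that lack it let calcium in. TARPs bring AMPA receptors to the cell surface and slow their closing. The arrays measured RNA, not channels, and in cultures a lower share of expressing cells and less RNA per cell cannot be told apart.

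The labelled cell type was checked against its markers. All 7 OPC markers (Pdgfra, Cspg4, Olig1, Olig2, Sox10, Ptprz1 and Nkx2-2) were above background on every array, and none passed the test between the tissues described below. With cell preparation as a block, Ptprz1 was lower in spinal cord OPC (log2 difference -0.36, adjusted p in limma = 0.00777). A background floor was set on each array at the 95th percentile of 1302 probes for olfactory receptor genes (6.07 to 6.10 in log2 intensity), and a probe was tested if it lay above this floor on at least 3 of the 6 arrays. Between 44.9% and 46.6% of 45281 probes lay above it per array. With 3 arrays per tissue, precision is limited by their number. Of 13 neuron markers with a probe 6 were tested (Syt1, Nefm, Map2, Elavl4, Syp and Gad1) and 0 passed in either direction, with log2 differences of -0.23 to 0.28. The 7 others (Tubb3, Snap25, Stmn2, Nefl, Slc17a6, Slc17a7 and Gad2) were above the floor on fewer than 3 arrays. The neuron markers' summed intensity was 9845 to 11768 in spinal cord and 9098 to 9983 in cerebrum OPC, most of it from Map2. Of 7 astrocyte markers 3 were tested (Aldoc, Slc1a2 and Aqp4), none passed without the block and Aldoc was higher with it, while Gfap, Aldh1l1, Gja1 and Gjb6 were above the floor on fewer than 3 arrays. The astrocyte list summed to 7398 to 8165 in spinal cord and 5930 to 6730 in cerebrum OPC, without overlap. Of 8 microglia markers 3 were tested, and of 4 endothelial markers 2, and 0 passed in either fit. Microglia markers summed to 518 to 554 in spinal cord and 516 to 533 in cerebrum OPC. Endothelial markers summed to 237 to 245 and 250 to 254. The part of these markers in the results below was not tested.

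Differences were fitted with limma across all 20988 tested probes, spinal cord minus cerebrum, and called at a Benjamini-Hochberg adjusted p under 0.05. Of 15039 tested gene symbols 375 were called (2.49%), of which 244 (1.62%) had higher and 131 (0.871%) lower values in spinal cord OPC. At the level of probes 484 were called (2.31%). The 3 spinal cord samples lay wholly above the 3 cerebrum samples in 7.93% of genes and wholly below them in 6.88%, 14.8% together. Same-numbered samples deviated together, so a fit with the preparation as a block was run as well. It called 830 genes (5.52%), 477 higher (3.17%) and 353 lower (2.35%), and its value is given where it changes a call.

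Of the 29 members with a probe 11 were above the floor on at least 3 arrays. These were Gria2, Gria3, Gria4, Cacng4, all 5 kainate subunit genes, Grin2b and Grm5. Of the 11, Gria2 was called (1 lower, 0 higher), against 2.49% of all tested genes. The fit with the block called Gria2, Grm5 (both lower) and Gria4 (higher), against 5.52%. The tissues did not overlap in 1 higher gene (Gria4) and 3 lower ones (Gria2, Grin2b and Grm5), against 7.93% and 6.88% of all tested genes. Of these, Grin2b lay near the floor. The members were chosen with earlier results of these data known, so these counts are no test of enrichment. Without cerebrum replicate 3 the called members were Gria2, Gria4 and Grm5, while called probes over the whole array rose from 484 to 886. The median log2 difference of the 11 was 0.02, against -0.0023 over all tested genes. The share of members above the floor was 37.9%, against 48.7% of all symbols. Intensities of different probes depend on the probe, so levels are compared between tissues and not between genes.

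**Figure D1:**
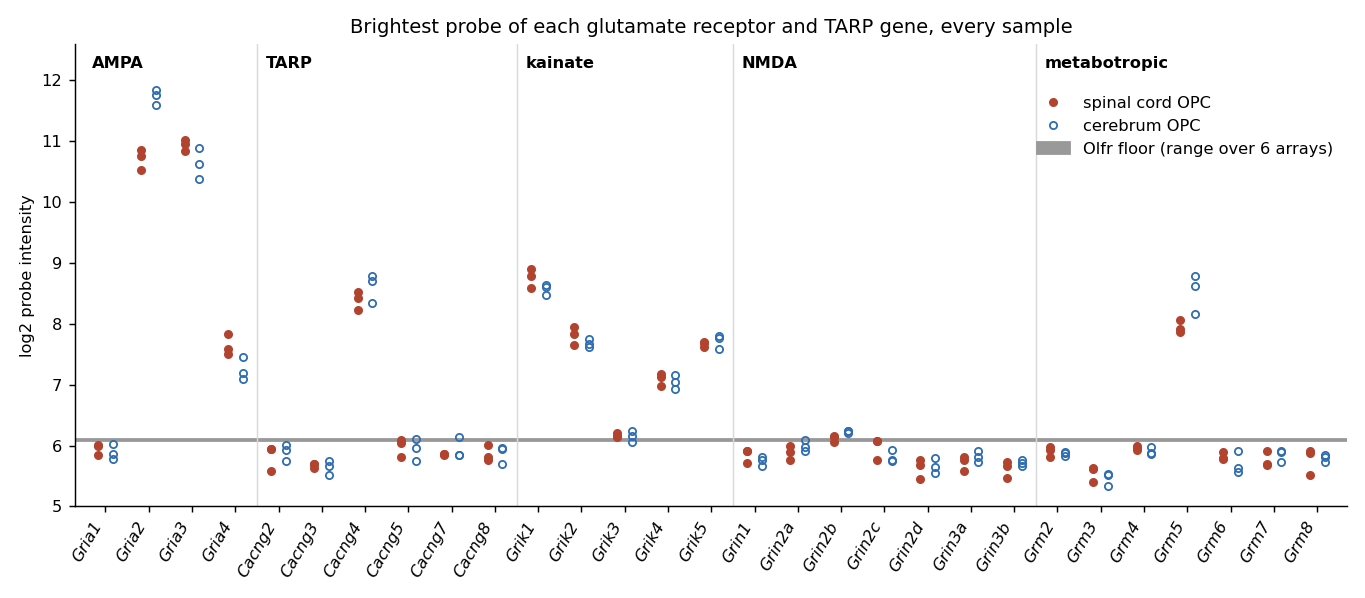
Log2 intensity of the brightest probe of each of the 29 members in every sample, with spinal cord OPC as filled and cerebrum OPC as open circles. The grey band is the range of the background floor over the 6 arrays (6.07 to 6.10). The 11 members named above lie above their array's floor on at least 5 arrays, with 1 value each of Grin2b and Grik3 below it, Gria2 is separated by tissue by about 1 log2 unit, and of the 18 others 4 single values exceed their array's floor.

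The promoters of 2 AMPA subunit genes are shown, Gria2 because it is the gene that differed most among the members and Gria4 because its values lay in the opposite direction. Each line gives the 250 bases before the annotated start, 5′ to 3′ on the gene's strand, from RefSeq's table for GRCm38.p6. The Gria2 window is chr3:80802836-80803085 and the Gria4 window chr9:4796235-4796484, both on the minus strand. Other RefSeq transcripts of Gria2 begin farther upstream than this window. Capitals mark the match to RE1, the element read by the repressor REST, which is known from work on this gene in neurons and was searched for that reason.
Gria2: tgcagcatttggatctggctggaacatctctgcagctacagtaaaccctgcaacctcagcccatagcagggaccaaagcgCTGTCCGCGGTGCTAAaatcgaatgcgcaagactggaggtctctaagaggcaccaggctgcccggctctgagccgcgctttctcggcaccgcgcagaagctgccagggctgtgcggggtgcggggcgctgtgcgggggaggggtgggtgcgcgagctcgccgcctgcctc
Gria4: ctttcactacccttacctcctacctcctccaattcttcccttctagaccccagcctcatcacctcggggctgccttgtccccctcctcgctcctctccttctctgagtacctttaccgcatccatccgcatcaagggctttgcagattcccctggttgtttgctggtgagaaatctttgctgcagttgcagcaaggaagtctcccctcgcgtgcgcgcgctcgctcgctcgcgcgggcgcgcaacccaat
The match in Gria2 spans bases -170 to -155 before the start and reads as the element on the opposite strand (TTAGCACCGCGGACAG). The search used a 16-base pattern for the element, with some positions free to vary, and the counts are those of this pattern. On either strand it occurred in 19 of 32851 windows of 250 bases (0.0578%). Windows were found for 20 members (24 windows), and Gria2 was the member that held it, 1 of 20. Since the element was searched for because it is known in Gria2, these counts are no test of enrichment among the members. A match of letters is a description and shows no binding.

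Gria2 fell in spinal cord OPC. Its brightest probe had log2 intensities of 10.54, 10.86 and 10.75 in spinal cord replicates 1, 2 and 3, against 11.59, 11.85 and 11.76 in cerebrum replicates 1, 2 and 3. All 3 spinal cord values lay below all 3 cerebrum values, with a gap of 0.73 between them, against a range of 0.32 within spinal cord and 0.26 within cerebrum OPC. The log2 difference was -1.02 ± 0.12 (SE, 95% interval -1.27 to -0.77, adjusted p in limma = 0.00025), 2.03-fold. Within the 3 preparations it was -1.05, -0.996 and -1.01. By size it was the 34th largest fall among the 131 genes called lower. An exact permutation test of 3 samples against 3, which ignores the pairing by preparation, gave p = 0.1 (two-sided), the smallest that such a test can give.

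The other Gria2 probes gave the same picture. The probe second in intensity had 9.01, 9.13 and 9.01 in spinal cord replicates 1 to 3, against 10.48, 10.34 and 10.31 in cerebrum replicates 1 to 3. Its log2 difference was -1.33 ± 0.11 (SE, adjusted p in limma = 1.13e-05), 2.51-fold. The dimmest had 6.96, 7.05 and 6.94 in spinal cord, against 7.95, 8.16 and 7.94 in cerebrum OPC, a log2 difference of -1.03 ± 0.11 (SE, adjusted p in limma = 9.31e-05). All 3 probes passed on their own, and tissues did not overlap in any of them.

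**Figure D2:**
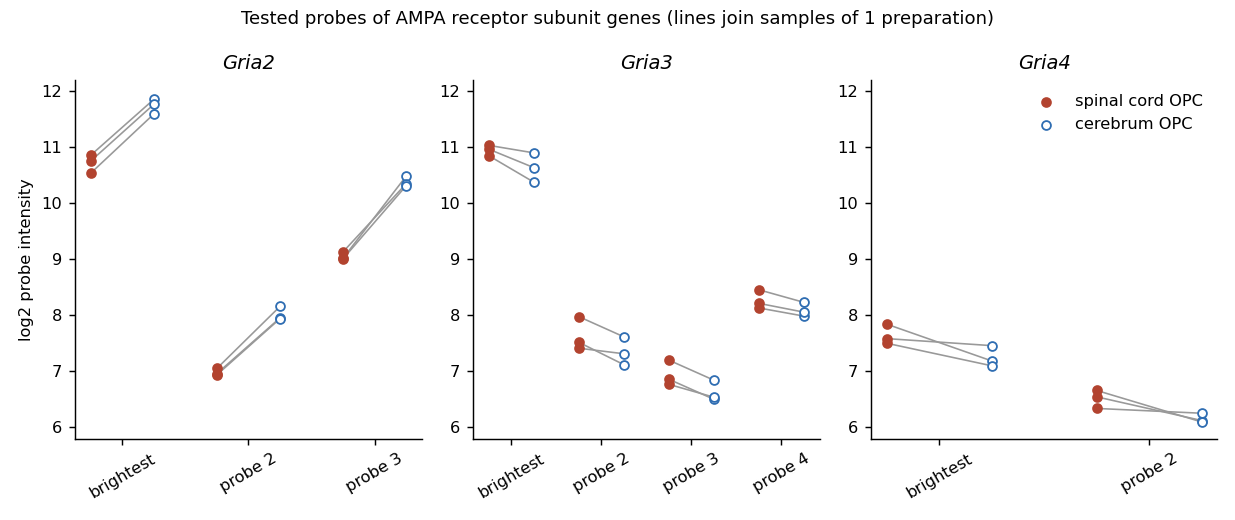
Log2 intensity of every tested probe of Gria2, Gria3 and Gria4, spinal cord OPC filled and left, cerebrum OPC open and right, with lines joining the samples of 1 preparation. The lines of all 3 Gria2 probes climb toward cerebrum, while those of the 4 Gria3 and 2 Gria4 probes descend toward it in every preparation.

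Gria3 and Gria4, the other AMPA subunit genes that were tested, had log2 differences above 0. Gria4, which encodes GluA4, had 7.84, 7.50 and 7.58 in spinal cord replicates 1 to 3, against 7.19, 7.10 and 7.46 in cerebrum replicates 1 to 3. The spinal cord values lay above the cerebrum values, with a gap of 0.04 between the closest samples of the 2 tissues. The log2 difference was 0.39 ± 0.13 (SE, adjusted p in limma = 0.208), which did not pass, and the fit with the block gave an adjusted p of 0.0347. Without cerebrum replicate 3 it was 0.50 ± 0.12 (SE, adjusted p = 0.0179). Its second tested probe had 6.54, 6.66 and 6.34 in spinal cord, against 6.12, 6.10 and 6.25 in cerebrum OPC. That probe also separated the tissues, with a log2 difference of 0.36 ± 0.10 (SE, adjusted p in limma = 0.117, and 0.0472 with the block). Its remaining probe was below the floor on all arrays.

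Gria3, which encodes GluA3, had 11.03, 10.96 and 10.85 in spinal cord replicates 1 to 3, against 10.90, 10.63 and 10.37 in cerebrum replicates 1 to 3. The tissues overlapped, since cerebrum replicate 1 lay above spinal cord replicate 3. In both tissues replicate 1 was highest and replicate 3 lowest, and within each preparation the spinal cord sample was higher, by 0.13, 0.33 and 0.47. The log2 difference was 0.31 ± 0.13 (SE, 95% interval 0.02 to 0.60, adjusted p in limma = 0.439), and the adjusted p of the blocked fit was 0.0506, so it passed in neither. The 3 other Gria3 probes had log2 differences of 0.18, 0.29 and 0.32, none past the threshold, and all 4 probes were higher in spinal cord OPC in all 3 preparations.

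Because a ratio within an array shows unequal change of probes, the log2 intensity of Gria2 minus the mean of Gria3 and Gria4 was taken per sample, a measure chosen after seeing the data. It was 1.10, 1.62 and 1.54 in spinal cord replicates 1 to 3, against 2.55, 2.99 and 2.85 in cerebrum replicates 1 to 3. The level of such a ratio has no meaning across probes. Its difference between tissues was -1.37, 2.59-fold, with no overlap (exact permutation test ignoring the pairing, two-sided, p = 0.1, the smallest it can give). The ratio was built from genes already seen to lie in opposite directions, so its separation restates their values and adds no support.

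Gria1, which encodes GluA1, was not above the floor on any array with any of its 4 probes. Of the 6 TARP genes, 1 was above it. Cacng4, which encodes TARP gamma-4, a TARP known from glia and immature brain, had 8.52, 8.43 and 8.22 in spinal cord replicates 1 to 3, against 8.78, 8.70 and 8.35 in cerebrum replicates 1 to 3. The tissues overlapped, while the spinal cord sample was the lower one in each preparation. The log2 difference was -0.22 ± 0.13 (SE, 95% interval -0.51 to 0.07, adjusted p in limma = 0.729). Cacng2, the gene of stargazin, and Cacng3 and Cacng8 lay below the floor on all 6 arrays. Cacng5 exceeded it on 2 and Cacng7 on 1 array.

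Kainate receptor subunits were read in both tissues and none passed. Grik1 (GluK1) had 8.78, 8.90 and 8.60 in spinal cord replicates 1 to 3, against 8.64, 8.60 and 8.47 in cerebrum replicates 1 to 3. Its log2 difference was 0.19 ± 0.12 (SE, 95% interval -0.06 to 0.44, adjusted p in limma = 0.72), and its other tested probe lay on the other side of 0 (-0.095). The tissues overlapped for Grik1 and for each other kainate subunit gene.

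Grik2 (GluK2) had 7.95, 7.66 and 7.83 in spinal cord replicates 1 to 3, against 7.75, 7.63 and 7.67 in cerebrum replicates 1 to 3. Its log2 difference was 0.13, with a 95% interval of -0.11 to 0.37. Grik4 and Grik5, which encode the high-affinity subunits GluK4 and GluK5, differed by 0.05 (95% interval -0.18 to 0.28) and -0.05 (-0.28 to 0.17). Those intervals leave room for a change of either sign, and none of them reaches the size of the Gria2 difference. Grik3 lay at the floor (6.15 to 6.21 in spinal cord, 6.06 to 6.23 in cerebrum OPC), with cerebrum replicate 2 below it, where a difference can hardly be measured.

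**Figure D3:**
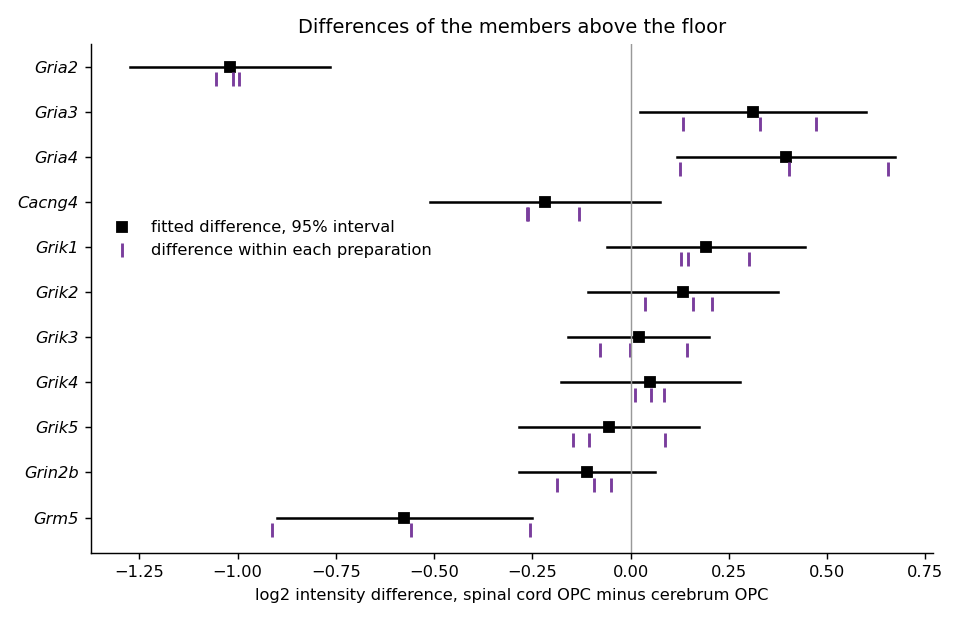
Log2 intensity difference, spinal cord OPC minus cerebrum OPC, of the 11 members above the floor. Squares and bars are the fitted difference and its 95% interval, and short ticks are the differences within the 3 preparations. Gria2 stands near -1 with its 3 ticks close together, Grm5 spreads from -0.91 to -0.26, and the kainate genes straddle 0.

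NMDA receptor genes were near or below background. Grin1, the obligatory subunit of these receptors, was not above the floor on any array with either of its probes, and Grin2a, Grin2d, Grin3a and Grin3b were not above it either. Grin2c exceeded it on 1 array. Grin2b had 6.16, 6.14 and 6.06 in spinal cord replicates 1 to 3, against 6.21, 6.24 and 6.24 in cerebrum replicates 1 to 3, all within about 0.2 of the floor. Its log2 difference was -0.11 ± 0.08 (SE, adjusted p in limma = 0.806), and its 2 other probes were below the floor. With the background subtracted the difference was -0.41 ± 0.30 (SE), so its size rests on the background.

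Among the metabotropic receptors with a probe, Grm5 was the one above the floor. It encodes mGlu5, a receptor that couples to Gq and releases calcium from stores. Its brightest probe had 7.87, 8.07 and 7.91 in spinal cord replicates 1 to 3, against 8.78, 8.63 and 8.17 in cerebrum replicates 1 to 3. The tissues did not overlap, and cerebrum replicate 3 lay closest to the spinal cord samples. The log2 difference was -0.58 ± 0.15 (SE, adjusted p in limma = 0.0805), 1.49-fold, which did not pass. In the blocked fit the adjusted p was 0.00309, and without cerebrum replicate 3 the difference was -0.76 ± 0.11 (SE, adjusted p = 0.000339). The differences within preparations were -0.91, -0.56 and -0.26.

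A second Grm5 probe had 6.52, 6.49 and 6.59 in spinal cord replicates 1 to 3, against 6.80, 6.86 and 6.63 in cerebrum replicates 1 to 3. It separated the tissues as well, with a log2 difference of -0.23 ± 0.10 (SE, adjusted p in limma = 0.435), and the remaining probe was below the floor. The group II and III receptor genes Grm2, Grm3, Grm4, Grm6, Grm7 and Grm8 were not above the floor on any array. Over all 18 members that were not tested, single values ran from 5.33 to 6.14, and 4 of them, in 3 genes, exceeded the floor of their array. For these genes no difference was detectable on this array.

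Genes around the receptors were read in 6 lists, of which 56 of 84 genes were tested. In total 1 was called, lower in spinal cord OPC, against 0.871% of all genes called lower and 2.49% called in either direction. With the block 6 were called, all lower, against 2.35% called lower and 5.52% in either direction. The lists were chosen with earlier results of these data known, so these counts are no test of enrichment. The gene called without the block was Nptx2, which encodes a secreted pentraxin that gathers AMPA receptors at synapses. It had 8.13, 8.06 and 7.92 in spinal cord replicates 1 to 3, against 9.41, 9.34 and 8.82 in cerebrum replicates 1 to 3. The tissues did not overlap, with a gap of 0.70 against a range of 0.21 within spinal cord and 0.59 within cerebrum OPC. The log2 difference was -1.16 ± 0.15 (SE, adjusted p in limma = 0.000657), 2.23-fold. It was the 25th largest fall among the genes called lower.

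Of the other 18 tested postsynaptic scaffold and trafficking genes none passed in either fit. The largest differences among them were 0.20 ± 0.11 (SE) for Lin7c, which encodes a PDZ adaptor, and -0.19 ± 0.13 for Dlgap2, a scaffold gene. Among 7 tested auxiliary subunits of AMPA and kainate receptors other than TARPs none passed in either fit. The largest differences there were -0.13 ± 0.10 for the cornichon gene Cnih3 and 0.12 ± 0.10 for Shisa9, and the list's median was 0.02.

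Adarb1 encodes ADAR2, the enzyme that edits the pore site of Gria2 RNA. It had 8.41, 8.51 and 8.45 in spinal cord replicates 1 to 3, against 8.88, 8.78 and 8.70 in cerebrum replicates 1 to 3. The tissues did not overlap. The log2 difference was -0.33 ± 0.11 (SE, adjusted p in limma = 0.195, and 0.0445 with the block), and its 2 other probes had -0.18 and -0.095, with neither past the threshold in either fit. Adar, its relative, had a log2 difference of -0.16 ± 0.13 (SE, adjusted p in limma = 0.858). The arrays do not read editing itself.

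Of 6 tested genes in the glutamate transporter list none was called, and 2 were called lower with the block, against 2.35% of all tested genes. Slc1a4, in this list although it is a carrier of neutral amino acids, had a log2 difference of -0.48 ± 0.13 (SE, adjusted p in limma = 0.0865, and 0.00262 with the block). Slc1a1, the glutamate transporter EAAC1, had -0.31 ± 0.11 (SE, adjusted p in limma = 0.324, and 0.0444 with the block). Its 2 other tested probes had -0.31 and -0.15, with neither past the threshold in either fit. The vesicular transporter genes Slc17a6, Slc17a7 and Slc17a8 were above the floor on fewer than 3 arrays.

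Of 10 tested genes of glutamate, glutamine and co-agonist metabolism none was called. Phgdh, the first enzyme of serine synthesis, had -0.44 ± 0.11 (SE, adjusted p in limma = 0.062, and 0.00617 with the block), and Srr, which makes D-serine, had 0.16 ± 0.11 (SE, adjusted p in limma = 0.808). Of 12 tested partners of metabotropic signalling none was called. Itpr2, an IP3 receptor gene of calcium stores, had 8.39, 8.49 and 8.53 in spinal cord replicates 1 to 3, against 8.80, 8.95 and 9.26 in cerebrum replicates 1 to 3. Its log2 difference was -0.53 ± 0.13 (SE, adjusted p in limma = 0.0568, and 0.00159 with the block). The other Itpr2 probes were above the floor on at most 1 array and were not tested. Plcb3, a phospholipase C gene, had 0.31 ± 0.12 (SE, adjusted p in limma = 0.376).

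**Figure D4:**
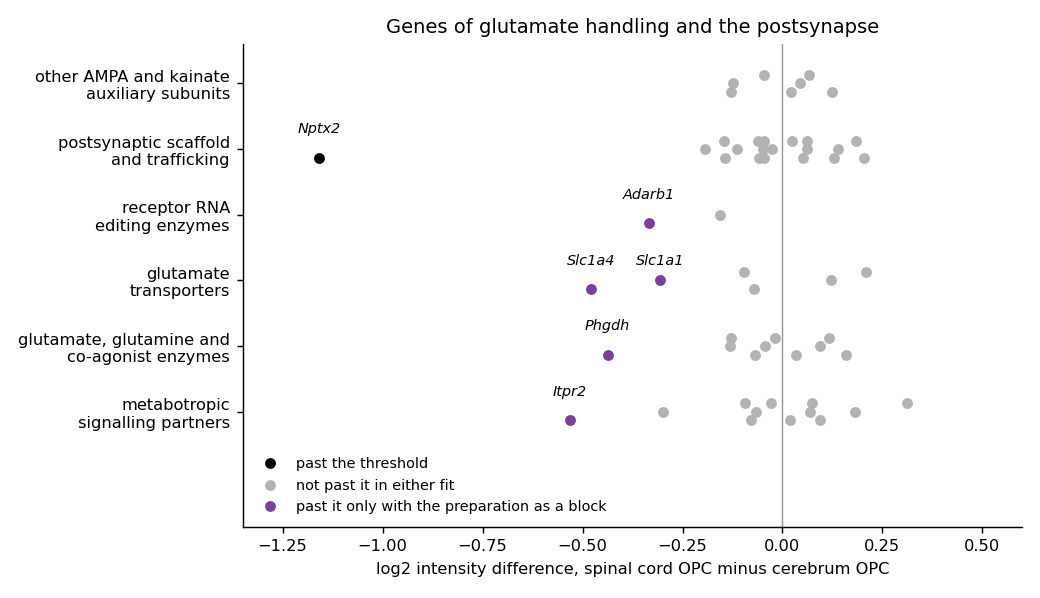
Log2 intensity difference, spinal cord OPC minus cerebrum OPC, of the 56 tested genes in 6 lists around the receptors, with 1 point per gene. Nptx2 at -1.16 is past the threshold, 5 genes pass only with the preparation as a block, all below 0, and the other points lie between -0.30 and 0.31.

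Markers of differentiating oligodendrocytes lay on both sides of 0, mostly above it. The log2 differences of those tested ran from -1.23 to 1.04, with a median of 0.77. Of 8 such genes 5 were tested, and without the block 1 was called higher (Mbp, the gene of myelin basic protein) and 0 lower, against 1.62% and 0.871% of all genes. With the block 4 were called higher and 1 lower, against 3.17% and 2.35%. Mog, Mobp and Myrf were above the floor on fewer than 3 arrays. The summed intensity of the list was 2780 to 3612 in spinal cord and 2490 to 4209 in cerebrum OPC, so the tissues overlapped. The part of cell state or of other cells in the receptor differences was not tested.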

How the data were processed

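Total RNA of 6 cultures, 3 spinal cord and 3 cerebrum OPC, was labelled as biotinylated cRNA and read on Illumina bead arrays, per the labels' protocols. The submitters' processing notes name GenomeStudio 2011.1. Values deposited by sample are linear probe intensities, from 36.5 to 49682 on every array with upper quartiles of 162.7, so the authors appear to have evened the arrays. Neither the method nor any background removal is given in the sources used here. Olfactory receptor probes had median intensities of 52.3 to 53.0, so background appears to remain and small intensities understate a fold change. The 12 value columns of a second deposited table match no sample's labels and were not used, and its gene symbols were.

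Log2 intensities were fitted with limma 3.58.1 in R 4.3.3 (lmFit, eBayes with intensity trend), with Benjamini-Hochberg adjustment over 20988 probes, and the code was tested on simulated data. The median standard error was 0.11, and 0.092 in the blocked fit. The pairing comes from the series' design text, and deviations of same-numbered samples correlated with 0.53, 0.21 and 0.50, against -0.45 to 0.03 for other pairs. The members and lists were chosen with earlier results of these data known. Members were all named. In the other lists genes past the threshold were named, with up to 2 others of largest change. Alternatives were other filters, scalings, priors, probes, a block and 1 array left out. The sources used here give no genome build. List genes were matched by symbol or RefSeq synonym (GRCm38.p6), and only promoter windows carry coordinates. Some genes, 1 of them counted in a marker list, are not reported here.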

Additional observations from a re-analysis of the deposited data

How the results depend on the processing

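Gria2 (-1.02) kept its direction and its call in all fits that could move it, while the exact permutation test of 6 samples cannot pass. When 1 array was left out its log2 difference was -1.09 to -0.93, with adjusted p (limma) up to 0.0048. Nptx2 did so as well, with -1.34 to -1.05 and adjusted p up to 0.0101. The replicate block, with the preparation as a term, raised the called members to 3 of 11, the called genes of the other lists to 6 and all called probes to 1068, against 1, 1 and 484 without it. It ended no call of a member or list gene. Leaving out 1 array gave 1 to 3 called members, 1 to 4 list genes and 227 to 886 probes, with 227 without spinal cord replicate 2, 258 without spinal cord replicate 1, 270 without spinal cord replicate 3, 272 without cerebrum replicate 2 and 886 without cerebrum replicate 3. Without cerebrum replicate 3 the list genes called were Nptx2, Slc1a4, Itpr2 and Gnai1, and without cerebrum replicate 1 they were 2, Nptx2 and Itpr2. Without the intensity trend they were 3, Nptx2, Phgdh and Itpr2. The cause was not tested. Signs turned in members that never passed, to -0.095 (Grik1) and -0.024 (Grik2) with another probe, to -0.022 for Grik3 without cerebrum replicate 2 (-0.022 to 0.063 without 1 array) and to -0.0075 for Grik4 without cerebrum replicate 1 (-0.0075 to 0.11). With the background subtracted the log2 differences were -1.04 for Gria2, 0.57 for Gria4 and -0.69 for Grm5. Cyclic loess, a robust prior and both other filters changed no call of a member or list gene. Quantile normalization and 75th percentile scaling say nothing about stability, since the deposited arrays already share an upper quartile and the same lowest and highest values. The signal over background limits the 18 members at the floor.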

Other observations

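Some genes outside the member list were read after their values were seen. Cacng1 and Cacng6, relatives of the TARP genes, were not above the floor on any array. Rest, the gene of the repressor that reads the RE1 element, was not above the floor on any array with the probe used, at 5.63, 5.56 and 5.89 in spinal cord and 5.65, 5.70 and 5.75 in cerebrum OPC.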
